A study of Mus musculus with 4 samples.

Results

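The genes described here are the nuclear genes of mitochondrial complex I, taken as every row of the deposited table whose symbol begins with Nduf, leaving out names that end in -ps. The rule found 46 of 51912 rows and left out 1 name. Of the 46, 38 are subunits and their relatives and 8 are assembly factors with names beginning Ndufaf. The samples were subcutaneous white adipose tissue, the fat beneath the skin, from C57BL/6 mice aged 8 weeks. Mice received BML-260, a small-molecule inhibitor of the phosphatase Dusp22, or DMSO, the solvent, which served as vehicle. Each group holds 2 RNA sequencing libraries, called A and B. The design text lists 8 mice, 4 for each treatment, and the 4 libraries could not be matched to single animals, nor to pools of them, from the labels. Dose, route and duration are not part of the labels. The p-values therefore measure only the spread between libraries, which may be technical.

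Complex I, or NADH:ubiquinone oxidoreductase, is the entry point of the respiratory chain. Its peripheral arm oxidises NADH in the N module and passes the electrons through iron-sulfur clusters to ubiquinone in the Q module, and its membrane arm pumps protons. The catalytic core is encoded partly in the nucleus and partly in mitochondrial DNA, and a shell of nuclear accessory subunits surrounds it. Assembly factors build the arms and leave the finished enzyme. In adipocytes the respiratory chain serves fat oxidation and, in brown and beige cells, heat production through Ucp1, which lets protons back across the membrane.

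By module, the 38 subunits and relatives hold 3 core subunits of the N module, 4 of the Q module, 9 accessory subunits of the peripheral arm, 9 of the proximal membrane arm and 11 of the distal membrane arm. The other 2 are Ndufa4, which is now placed in complex IV, and its paralog Ndufa4l2. Ndufb1, the twelfth name on the distal arm list, was not analysed here. All 46 genes are annotated as protein coding in GENCODE vM21 (GRCm38), on 17 chromosomes with 2 on the X chromosome. In the annotation, 19 share exon bases with another gene. The largest overlaps by share are those of Ndufaf2, which shares 65.6% of its exon bases with a lincRNA on the opposite strand, Ndufb6 with 39.0% and Ndufa13 with 30.0%. The labels give no strand setting, so reads of opposite-strand neighbours cannot be told apart from those of these genes. On the same strand, Ndufb9 shares 19.5% of its exon bases with Gm49356, Ndufb8 4.3% with Gm20538 and Ndufb2 2.6% with Gm42420. A strand setting would not separate reads of those shared bases. Each gene had at least 93 expected counts in every library, and all 46 passed the filter on low counts. Before the results, 2 libraries stand apart by cell type markers: vehicle A holds few skeletal muscle transcripts and BML-260 A the most B cell and T cell transcripts, with values given beside the library pattern.

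Promoter windows of the complex I genes held several of the short patterns commonly linked to respiratory genes. RefSeq (GRCm38.p6) gave a start site for 40 of the 46 genes. The windows ran from 250 bases before to 50 bases after the start, and motifs were counted on both strands. Each of the 40 genes, with 42 windows in all, counted once if any of its windows matched. The shares over all promoters count single windows of every gene in RefSeq's list, expressed here or not, so the units differ. The site of NRF1, a factor of nuclear respiratory genes, searched as GCGCANGCG, lay in the windows of 10 of the 40 genes (25.0%), beside 6.25% of 32851 promoters. The YY1 pattern AAGATGGCG lay in 6 (15.0%), beside 1.40% of all promoters. The ETS pattern CCGGAAG, bound by GABPA, lay in 6 (15.0%), beside 8.86%. The cyclic-AMP response element TGACGTCA lay in 3 (7.5%), beside 1.79%. The estrogen-related receptor pattern TNAAGGTCA lay in 1 (2.5%), beside 1.28%. Printed here, as examples of these patterns, are the 3 genes with a match in the 200 bases before the start and no annotated exon in those bases. The stretches run on the strand of the gene, with motif matches in capitals. Ndufaf1 (chr2:119662835-119663034, minus strand) holds an ETS site, Ndufaf4 (chr4:24897883-24898082, plus strand) an NRF1 site that matches on both strands and so overlaps itself, and Ndufb2 (chr6:39592365-39592564, plus strand) a cyclic-AMP element.
Ndufaf1: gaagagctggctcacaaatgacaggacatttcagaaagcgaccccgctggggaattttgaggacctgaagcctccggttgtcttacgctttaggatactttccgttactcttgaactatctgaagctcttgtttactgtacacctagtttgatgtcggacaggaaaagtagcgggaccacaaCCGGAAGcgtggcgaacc
Ndufaf4: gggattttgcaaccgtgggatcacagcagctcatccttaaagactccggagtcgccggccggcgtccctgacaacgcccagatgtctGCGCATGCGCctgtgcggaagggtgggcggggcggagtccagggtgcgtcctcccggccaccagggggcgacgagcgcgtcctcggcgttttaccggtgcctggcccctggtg
Ndufb2: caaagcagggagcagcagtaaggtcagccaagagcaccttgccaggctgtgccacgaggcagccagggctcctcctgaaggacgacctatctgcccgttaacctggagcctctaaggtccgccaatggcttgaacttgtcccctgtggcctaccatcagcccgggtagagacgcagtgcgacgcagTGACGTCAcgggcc

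Holders of a motif spread on both sides of no change. The 10 genes with an NRF1 site had log2 fold changes of BML-260 against vehicle from -0.12 to 0.18, with a median of 0.033. The 3 with a cyclic-AMP element were Ndufa10 at 0.24, Ndufa11 at -0.048 and Ndufb2 at -0.074. These matches describe letters in a window and not bound sites.

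Per length, nearly all complex I subunits had higher levels than the assembly factors. In the deposited FPKM, which divides by transcript length and depth, the 36 subunits of complex I had mean levels over the 4 libraries from 39.1 to 477, with a median of 194. The 8 assembly factors ran from 7.47 to 40.2, with a median of 14.8. By these means Ndufaf8 alone of the assembly factors lay above a complex I subunit, Ndufb4, and it did so in both vehicle libraries but lay below it in both BML-260 libraries.

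The highest of the 46 was Ndufa4, with FPKM of 711 and 674 with vehicle, then 627 and 792 with BML-260 (libraries A and B in turn, here and below). Ndufb9, a distal membrane arm subunit of the LYR family, had 523 and 481 with vehicle, then 401 and 502 with BML-260. Ndufb8, also of the distal arm, had 445 and 447 with vehicle, then 436 and 495 with BML-260. These Ndufb9 and Ndufb8 values overlap, so their order is within the spread of the libraries, whereas Ndufa4 lay above both in every library. Both Ndufb9 and Ndufb8 also share exon bases with a gene on the same strand, as given above. Of the core subunits, Ndufs1 had a mean FPKM of 84.7 and Ndufs7 of 257, and the accessory subunits spanned the range from Ndufb4 to Ndufb9. Ndufb4, at a mean FPKM of 39.1, had expected counts with a fractional part in all 4 libraries, a mark of reads shared with other loci, so its level is uncertain. The same holds for Ndufb2 and Ndufb6 in all 4 libraries and for Ndufs1, Ndufb5 and Ndufaf7 in 3, and for Ndufab1, Ndufa13 and Ndufs5 in 1 or 2, which makes 9 genes. The next lowest subunits were Ndufs4 at 84.6 and Ndufs1 at 84.7.

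**Figure D1:**
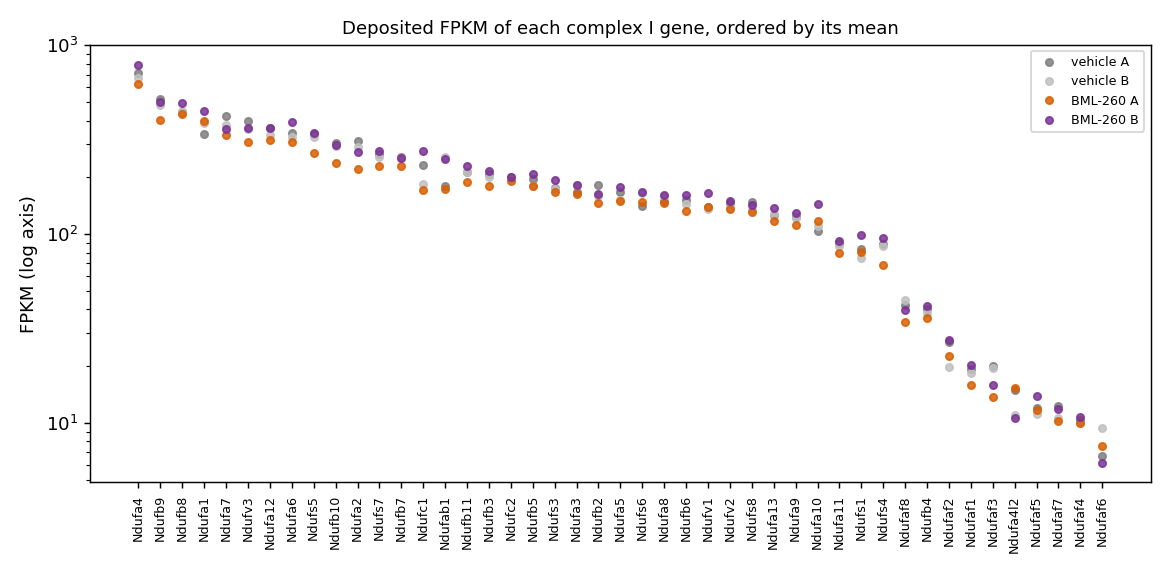
Deposited FPKM (vertical log axis) of 45 of the 46 complex I genes, ordered along the horizontal axis by their mean, with 1 point per library (grey, vehicle A and B; orange, BML-260 A; purple, BML-260 B). Ndufa4 stands first at a mean of 701, the complex I subunits other than Ndufb4 lie between 84.6 and 477, and the assembly factors, Ndufb4 and Ndufa4l2 form the low end.

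Paralogs in the set differed widely in level per length. Ndufa4l2, whose protein is known from hypoxic cells, had a mean FPKM of 13.0 beside 701 for Ndufa4. Ndufaf2, an assembly factor related in sequence to the subunit Ndufa12, had 24.2 beside 345 for Ndufa12.

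Between BML-260 and vehicle, no complex I gene passed the test, and the estimates were small in both directions. With edgeR's quasi-likelihood test and Benjamini-Hochberg adjustment over 15643 genes, 0 of 46 had an adjusted p under 0.05, where 1 gene of all tested did (0.00639%), and the adjusted p of the 46 ran from 0.472 to 0.993. At an unadjusted p under 0.05 the count was also 0 of 46, where 11.1% of all genes tested lay under it. That count was not the same in every alternative: Ndufaf3 lay under it with library totals, with no filter, with limma on log2 FPKM and without BML-260 B, Ndufa2 also without BML-260 B, and Ndufa10 without BML-260 A. DESeq2 called 0 of 46, where it called 2.62% of the genes for which it gave an adjusted p. A limma-voom fit also called 0 of 46, but it called only 1 gene of all tested. In the authors' deposited table, 0 of 46 had an adjusted p under 0.05, where 2.23% of the genes that it marks up or down did, and the lowest adjusted p among the 46 was 0.687. The single gene that edgeR called was Ucp1, at 7.88 and 9.68 CPM (counts scaled to the effective library size) with vehicle, then 251 and 263 with BML-260.

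The width of the intervals bounds the size of change these libraries allow. The 95% intervals of all 46 genes lay within a 2-fold change in either direction, which held for 64.4% of all genes tested. Those of 33 lay within 1.5-fold, which held for 35.4% of all genes tested. The median SE was 0.156 for the 46 genes and 0.199 over all genes tested, so these shares also reflect precision. The outermost bounds on the log2 scale were -0.81, for Ndufaf3, and 0.77, for Ndufaf2. The median log2 fold change of the 38 subunits and relatives was 0.021, with 21 above 0 and 17 below, and that of the 8 assembly factors was 0.001, with 4 on each side. Over all genes tested it was 0.017, with 52.5% above 0. The medians rested on which BML-260 library was present: without BML-260 A the subunit median was 0.14 and without BML-260 B it was -0.14, and the assembly factor median was 0.11 and -0.14. Without vehicle A the subunit median was -0.038 and that of the assembly factors 0.001.

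**Figure D2:**
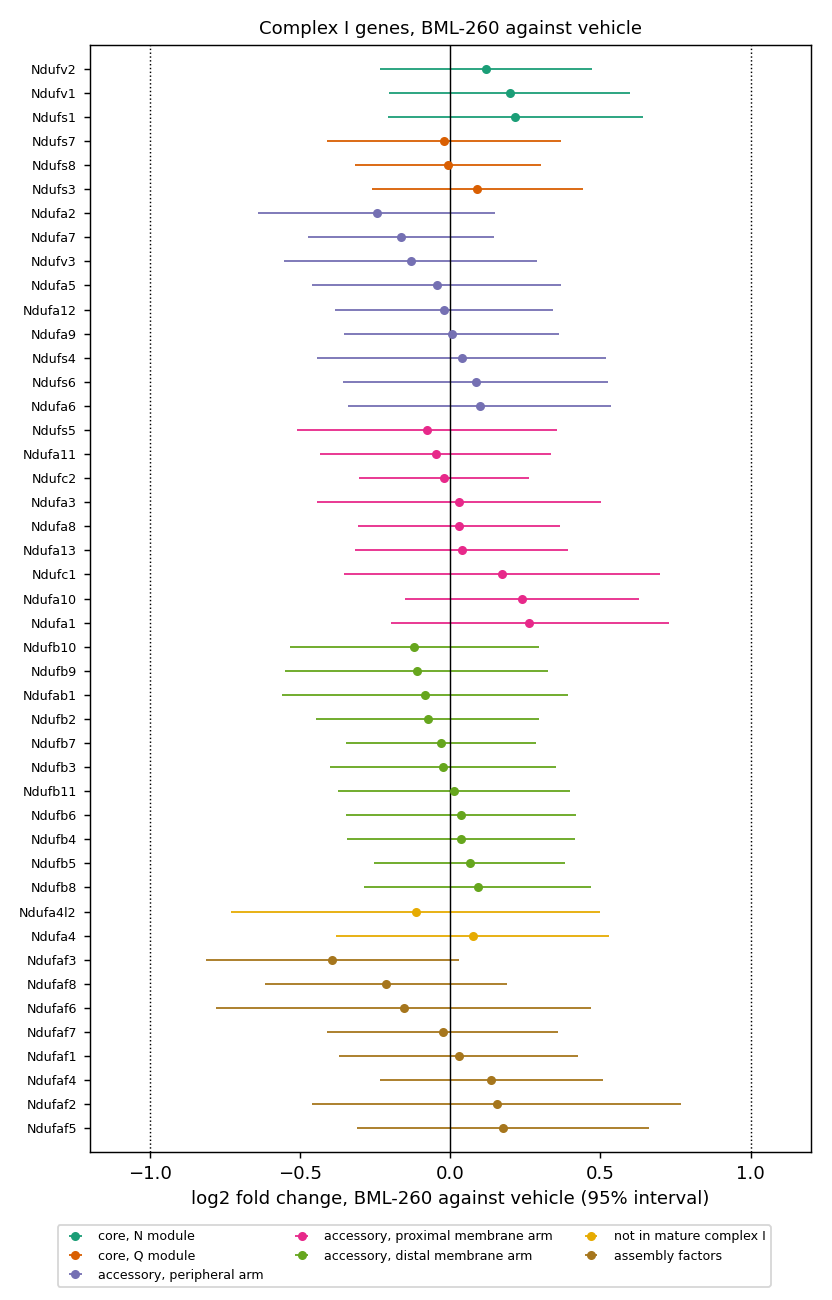
Log2 fold change of BML-260 against vehicle (horizontal axis; points) with its 95% interval (lines) for 45 of the 46 genes, coloured by module, from the edgeR fit. Dotted lines mark a 2-fold change; every interval shown lies between them and includes 0.

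The 3 core subunits of the N module had the highest module median, 0.20 on the log2 scale. Ndufv1, which binds NADH and the flavin, had 177 and 175 CPM with vehicle, then 180 and 223 with BML-260 (log2 fold change 0.20, SE 0.16, adjusted p 0.673). Ndufs1, the largest subunit of the peripheral arm, had 189 and 169 CPM with vehicle, then 185 and 231 with BML-260 (log2 fold change 0.22, SE 0.17, adjusted p 0.664). Ndufv2, which carries an iron-sulfur cluster beside Ndufv1, had 123 and 121 CPM with vehicle, then 121 and 144 with BML-260 (log2 fold change 0.12, SE 0.14, adjusted p 0.782). In each of the 3 genes BML-260 B alone stood high, and BML-260 A lay between the vehicle libraries for Ndufs1 and Ndufv2 and just above them for Ndufv1. In CPM the groups did not overlap for Ndufv1 and did overlap for Ndufs1 and Ndufv2, and in FPKM those of Ndufv1 overlapped too, at 140 and 136 with vehicle, then 139 and 166 with BML-260.

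Of the core subunits of the Q module, which carry electrons to ubiquinone, 3 are described here, and none passed the test. Ndufs3 had 123 and 126 CPM with vehicle, then 121 and 143 with BML-260 (log2 fold change 0.090). It was highest in BML-260 B, with BML-260 A just under the vehicle libraries. Ndufs7, which holds the last cluster before ubiquinone, had 117 and 118 CPM with vehicle, then 102 and 129 with BML-260 (log2 fold change -0.020). Ndufs8, a ferredoxin-like subunit, had 83.9 and 79.5 CPM with vehicle, then 76.2 and 86.4 with BML-260 (log2 fold change -0.007). For Ndufs7 and Ndufs8 the BML-260 libraries enclosed both vehicle libraries.

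Among the 9 accessory subunits of the peripheral arm the log2 fold changes ran from -0.25 to 0.099, with 4 above 0. Ndufa2, a thioredoxin-fold subunit, had the lowest value of the subunits, with 79.5 and 79.1 CPM with vehicle, then 58.3 and 75.5 with BML-260 (log2 fold change -0.25, SE 0.16, adjusted p 0.602). Ndufa7 had 80.8 and 78.4 CPM with vehicle, then 66.2 and 76.1 with BML-260 (log2 fold change -0.16, SE 0.12, adjusted p 0.655). For both, BML-260 A was the low library and BML-260 B lay just under the vehicle libraries, so that the groups did not overlap. The other 7 overlapped between groups: Ndufv3, Ndufa5, Ndufa12, Ndufa9, Ndufs4, Ndufs6 and Ndufa6, from -0.13 for Ndufv3 to 0.099 for Ndufa6. Ndufs4, a late-joining subunit often used as a knockout model of complex I deficiency, had the widest ratio of the 46 between the BML-260 libraries, at 63.6 and 90.9 CPM, beside 76.8 and 73.8 in vehicle.

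The 9 accessory subunits of the proximal membrane arm held the 2 highest estimates of the whole set. Ndufa1, a short single-span membrane subunit (chrX:37187588-37191163, minus strand), had 37.5 and 48.5 CPM with vehicle, then 46.2 and 57.1 with BML-260 (log2 fold change 0.26, SE 0.18, adjusted p 0.624). Ndufa10, a subunit with a nucleoside kinase fold (gene at chr1:92439010-92473860, minus strand), had 164 and 174 CPM with vehicle, then 180 and 218 with BML-260 (log2 fold change 0.24, SE 0.15, adjusted p 0.607). Vehicle A was the low library for Ndufa1 and its groups overlapped, whereas both BML-260 libraries of Ndufa10 lay above both vehicle libraries. The estimate for Ndufa1 had the other sign, -0.090, in a fit with the skeletal muscle marker score as a term. The other 7 overlapped between groups: Ndufs5, Ndufa11, Ndufc2, Ndufa3, Ndufa8, Ndufa13 and Ndufc1, from -0.077 for Ndufs5 to 0.17 for Ndufc1. Ndufc2 had the smallest ratio of highest to lowest library of the 46, at 71.3 and 74.9 CPM with vehicle, then 69.4 and 74.8 with BML-260.

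In CPM, the 11 subunits of the distal membrane arm overlapped between groups without exception, with log2 fold changes from -0.12 (Ndufb10) to 0.092 (Ndufb8) and 5 of 11 above 0. They were Ndufab1, the mitochondrial acyl carrier protein, and Ndufb2 to Ndufb11. Ndufb9 had 173 and 169 CPM with vehicle, then 137 and 180 with BML-260 (log2 fold change -0.11), and Ndufb8 had 169 and 176 with vehicle, then 167 and 200 with BML-260. Ndufb2, whose promoter is printed above, had 37.1 and 34.5 CPM with vehicle, then 30.6 and 37.4 with BML-260. All 11 were lowest in BML-260 A and highest in BML-260 B.

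Of the 2 relatives outside complex I, Ndufa4 had 206 and 209 CPM with vehicle, then 188 and 249 with BML-260 (log2 fold change 0.076, SE 0.18, adjusted p 0.899). Ndufa4l2 had 8.73 and 6.44 CPM with vehicle, then 7.08 and 6.92 with BML-260 (log2 fold change -0.12, SE 0.24, adjusted p 0.887). The 2 had different orders of libraries: Ndufa4 was highest in BML-260 B and Ndufa4l2 in vehicle A.

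The assembly factors held the lowest estimate of the 46. Ndufaf3, which joins the Q module with Ndufaf4 (chr9:108565537-108567434, minus strand), had 22.5 and 21.7 CPM with vehicle, then 14.8 and 18.8 with BML-260. Both BML-260 libraries lay under both vehicle libraries. Its log2 fold change was -0.39 (SE 0.17, 95% interval -0.81 to 0.029, unadjusted p 0.0623, adjusted p 0.472 with edgeR), so it did not pass the test. Its partner Ndufaf4 had 19.5 and 20.5 CPM with vehicle, then 20.2 and 23.8 with BML-260 (log2 fold change 0.14, SE 0.15). The groups of Ndufaf4 overlapped.

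Ndufaf5 and Ndufaf7 modify core subunits of the Q module during assembly, Ndufaf7 as a methyltransferase and Ndufaf5, a protein of the same fold, by acting on Ndufs7. Ndufaf5 had 10.1 and 9.73 CPM with vehicle, then 10.1 and 12.3 with BML-260 (log2 fold change 0.18, SE 0.19), with vehicle A and BML-260 A level. Ndufaf7 had 24.3 and 21.4 CPM with vehicle, then 20.6 and 24.2 with BML-260 (log2 fold change -0.025). Its groups overlapped, and its counts had a fractional part in 3 libraries. Ndufaf8, the partner of Ndufaf5, had 15.6 CPM in both vehicle libraries and 12.5 and 14.4 in BML-260 (log2 fold change -0.21, SE 0.16, adjusted p 0.648). Thus Ndufaf5 and its partner Ndufaf8 had estimates of opposite sign, each with an interval that includes 0.

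Ndufaf1, a factor of early membrane arm assembly whose promoter is printed above, had 17.8 and 18.8 CPM with vehicle, then 16.9 and 20.4 with BML-260 (log2 fold change 0.028). Ndufaf2, which occupies the place that Ndufa12 later takes, had 9.64 and 7.48 CPM with vehicle, then 8.33 and 10.7 with BML-260 (log2 fold change 0.16, SE 0.24). For both genes the groups overlapped. Ndufaf6 had 4.56 and 5.45 CPM with vehicle, then 4.48 and 4.51 with BML-260 (log2 fold change -0.16, SE 0.25). In CPM its groups did not overlap, but in the deposited FPKM they did, at 6.71 and 9.45 with vehicle, then 7.55 and 6.17 with BML-260.

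Counted over the set in CPM, BML-260 lay above vehicle without overlap for 3 of 46 genes (Ndufv1, Ndufa10 and Ndufaf5), where 22.9% of all genes tested did. It lay below vehicle without overlap for 5 of 46 (Ndufa2, Ndufa7, Ndufaf3, Ndufaf8 and Ndufaf6), where 21.5% of all genes tested did. The groups overlapped for the other 38 of 46 (82.6%), beside 55.7% of all genes tested. These counts depend on the scale: vehicle A and BML-260 A of Ndufaf5 are equal to the printed digits, and in the deposited FPKM the groups of Ndufv1, Ndufaf5 and Ndufaf6 overlapped. In FPKM BML-260 lay above vehicle for 2 genes (Ndufa1 and Ndufa10), below it for 5 (Ndufa2, Ndufa7, Ndufaf3, Ndufaf8 and Ndufb7) and overlapped it for 39.

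The pattern that the members did share was a difference between the 2 BML-260 libraries. In CPM, BML-260 B lay above BML-260 A in 45 of the 46 genes, with Ndufa4l2 as the exception, where 53.1% of all genes tested did so. In the deposited FPKM Ndufaf6 also went the other way, at 7.55 in BML-260 A and 6.17 in B. The size of the ratio depends on the scaling, with TMM factors of 1.04 for BML-260 A and 0.926 for BML-260 B. Unscaled, the 46 genes took 0.382% of counts in BML-260 A and 0.423% in B, beside 0.409% and 0.406% in vehicle. The median log2 ratio of BML-260 B over A was 0.31 in the subunits and relatives, 0.26 in the assembly factors and 0.027 over all genes tested. For vehicle B over A the same medians were 0.024, -0.028 and -0.003. BML-260 A was lowest and BML-260 B highest of the 4 libraries in 24 of 38 subunits and relatives (63.2%) and in 1 of 8 assembly factors, Ndufaf1, where 7.75% of all genes tested had that order. The ratio has 1 library on each side and no test.

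**Figure D3:**
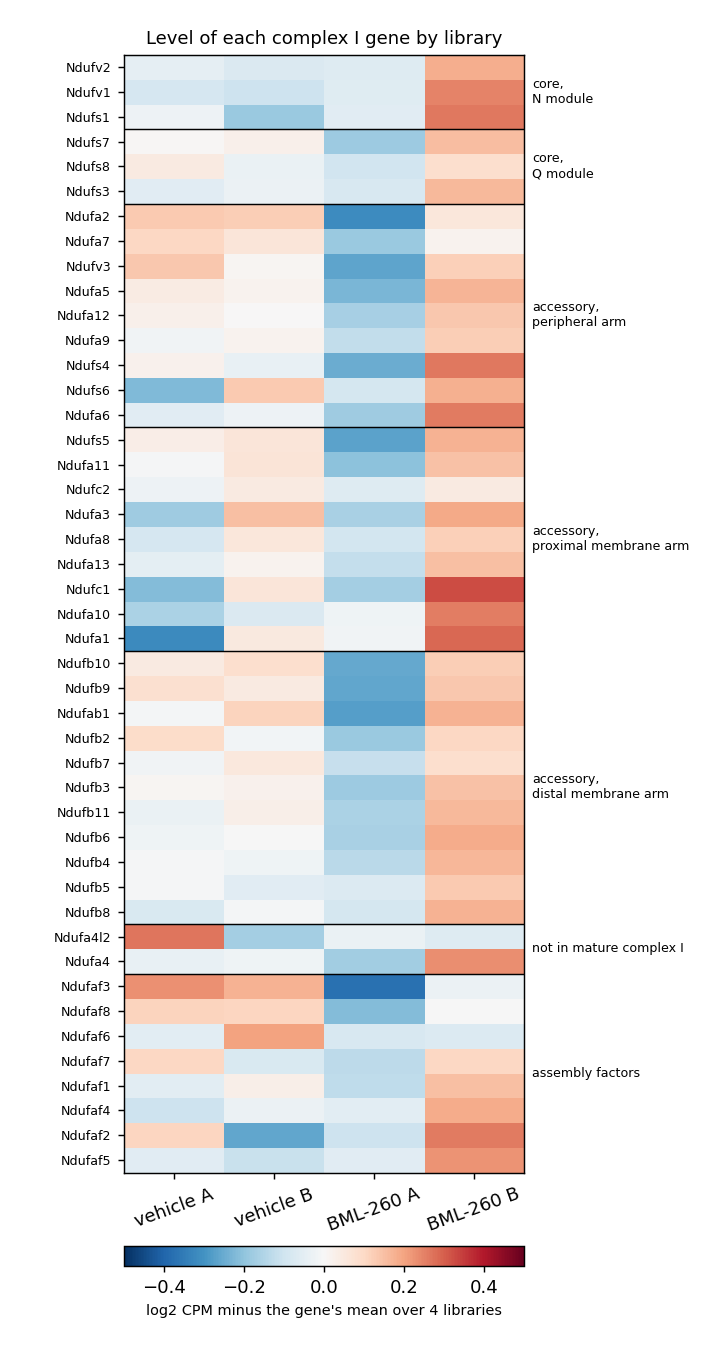
Log2 CPM of 45 of the 46 genes (rows, grouped by module) in each of the 4 libraries (columns), with the mean of the gene over the 4 libraries taken away; red is above the mean and blue below. The BML-260 A column is mostly blue and the BML-260 B column mostly red, while the vehicle columns are mostly pale.

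Cell type markers also differed between the same libraries. The 10 white adipocyte markers together took 3.75% and 3.50% of counts in vehicle and 2.55% and 3.12% in BML-260. Of these, 10 of 10 were lowest in BML-260 A, beside 31.2% of all genes tested, with a median log2 ratio of BML-260 B over A of 0.43. None of the 10 was highest in BML-260 B, where 33 of 38 complex I subunits and relatives and 24.9% of all genes tested were. Adipoq, the adipocyte hormone adiponectin, was at 3022 and 2744 CPM with vehicle, then 1662 and 2193 with BML-260, so the labelled tissue carried its defining marker in every library. B cell markers took 0.021% of counts in BML-260 A and at most 0.00033% in the other libraries, and T and NK cell markers 0.016% and at most 0.0033%. Macrophage markers took 0.121% and 0.142% in vehicle and 0.174% and 0.0892% in BML-260. Skeletal muscle markers took 0.0494% and 1.27% in vehicle and 3.68% and 5.05% in BML-260, with Myh7 of slow fibres at 0 CPM in 3 libraries. A fit with the muscle marker score as a term gave median log2 fold changes of -0.054 for subunits and relatives and -0.015 for assembly factors. Without that term they were 0.021 and 0.001. The score itself was higher in both BML-260 libraries (1.62 and 2.08) than in vehicle (-3.86 and 0.167), so the 2 terms overlap. Beyond that fit, the part of these cell types in the complex I values was not tested. In bulk tissue, fewer cells of a type and less RNA per cell cannot be told apart.

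**Figure D4:**
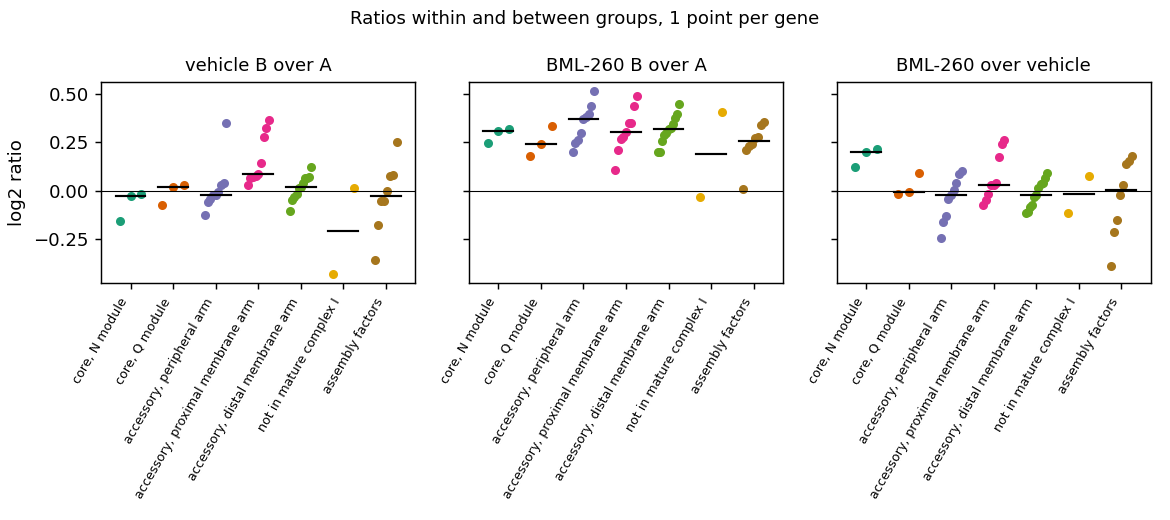
Log2 ratios of 45 of the 46 genes (points; bars are medians of the points) by module, for vehicle B over A (left), BML-260 B over A (middle) and BML-260 over vehicle (right). In the middle panel every point but that of Ndufa4l2 lies above 0, whereas the left and right panels spread on both sides of 0.

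The members followed the shared profile to different degrees. The mean centred log2 CPM of the 38 subunits and relatives was -0.023 and 0.009 in vehicle and -0.15 and 0.16 in BML-260. Over the 4 libraries, Pearson's r of a gene with that profile, to which the subunits themselves contribute, was highest for Ndufb6 at 0.998 and Ndufa9 at 0.997. It was lowest for Ndufa4l2 at -0.19, Ndufaf6 at 0.071 and Ndufaf3 at 0.45. Among the 15597 other genes tested, 59 (0.378%) reached an r of 0.99. The 10 with the highest r were Timm29, Zfp467, Armc9, Pex7, Atp5j2, Ahsa2, Arxes2, Cox6b1, Aph1a and Urgcp, from 0.9999 down to 0.9987. Timm29 belongs to a mitochondrial import translocase, Atp5j2 to ATP synthase and Cox6b1 to complex IV. The rest of the 10 are not described here, and no shared function of the 10 was tested. A high r does not need a large change: Aph1a had a range of 0.062 on the log2 scale, beside 0.308 for the profile. These r values rest on 4 points from shared libraries and are a description. Across the 38 genes, Spearman's rho of the log2 fold change with exon length was 0.21, also a description, since the genes share libraries.

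The other parts of the complex I pathway were read from lists of names. Of 13 assembly factors with other names, 10 were tested, and 0 passed edgeR's adjusted or unadjusted threshold or DESeq2's. Over all genes tested edgeR called 0.00639% and 11.1% lay under its unadjusted threshold, and DESeq2 called 2.62% of the genes with an adjusted p. The median log2 fold change of the 10 factors was -0.002, with 5 on each side of 0. In BML-260 A 9 of 10 were lowest, beside 31.2% of all genes tested. Acad9, which works with Ndufaf1, had 64.1 and 60.2 CPM with vehicle, then 58.8 and 69.5 with BML-260. The order of its libraries was that of Ndufaf1 at the ends, with BML-260 A low and BML-260 B high. That order is not particular to this pair, since 7 of the 10 factors tested here had it.

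The 7 subunits encoded in mitochondrial DNA had log2 fold changes with a median of 0.18 and 6 of the 7 above 0, beside 52.5% of all genes tested. BML-260 lay above vehicle without overlap for 4 of the 7 (mt-Nd1, mt-Nd2, mt-Nd4l and mt-Nd5) and below it for 0, beside 22.9% and 21.5% of all genes tested. In edgeR's adjusted test 0 of the 7 passed, beside 0.00639% of all genes tested. Under an unadjusted edgeR p of 0.05 lay 1 of the 7, mt-Nd4l, beside 11.1% of all genes tested. This gene had 15.8 and 12.2 CPM with vehicle, then 23.8 and 38.0 with BML-260. The estimate for mt-Nd4l on the log2 scale was 1.15 (SE 0.27, unadjusted p 0.00741, edgeR adjusted p 0.329), and DESeq2 gave an adjusted p of 0.0160. DESeq2 called 1 of the 7, mt-Nd4l, where it called 2.62% of the genes for which it gave an adjusted p. The gene overlaps mt-Nd4, which had 6758 and 7145 CPM with vehicle, then 6737 and 7792 with BML-260, and nuclear copies of mitochondrial DNA can share reads, so its count is uncertain.

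Brown and beige adipocyte markers were read in the same fit. Of the 8, edgeR called 1 (Ucp1) and DESeq2 called 6, and 7 lay under an unadjusted p of 0.05, all higher in BML-260. Over all genes tested edgeR called 0.00639%, and 11.1% lay under its unadjusted p of 0.05 in either direction. DESeq2 called 2.62% of the genes for which it gave an adjusted p. Their median log2 fold change was 2.69, beside 0.021 for the complex I subunits and relatives. This marker list was chosen with results of these libraries known. Cidea, a lipid droplet protein of brown fat, had 64.5 and 74.6 CPM with vehicle, then 158 and 171 with BML-260, and Cpt1b, which admits fatty acids to mitochondria, had 10.1 and 16.3 with vehicle, then 82.3 and 103 with BML-260. With edgeR their adjusted p was 0.216 for both. Cpt1b and Cox7a1 of this list are also expressed in skeletal muscle, whose markers took 0.0494% and 1.27% of counts in vehicle and 3.68% and 5.05% in BML-260. With the muscle marker score as a term, edgeR called 0 of all genes, so Ucp1 was not called either. That fit leaves 1 residual degree of freedom, and its score overlaps with treatment. Beyond that fit, the part of muscle in these values was not tested.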

How the data were processed

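RNA for 4 libraries, 2 per group, was isolated with TRIzol and prepared for Illumina sequencing, per the labels' protocols, and groups were taken from the treatment label. The authors deposited 1 table with expected counts per gene, which were not normalized, and with FPKM per the file headers. It also holds the authors' deposited log2 fold change and p-value per gene. Listed in the submitters' processing notes are the build GRCm38.p5 and the tools DESeq2 1.10.1, HISAT2 2.1.0 and RSEM 1.2.31, with no role for any. Strandedness, annotation and filters on reads are not given in the sources used here. Library totals ran from 19999836 to 23726781 expected counts, of which the 46 genes took 0.382% to 0.423%.

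Expected counts were rounded and genes with low counts removed by filterByExpr, which left 15643. The test was the two-sided quasi-likelihood test of edgeR 4.0.16, run in R 4.3.3 after TMM scaling, on 2 residual degrees of freedom, with Benjamini-Hochberg adjustment over all genes tested. Standard errors and 95% intervals come from that fit. CPM are TMM-scaled, and levels of different genes were compared only in FPKM. Alternatives were RLE factors, library totals, no filter, DESeq2 1.42.0, limma 3.58.1 on voom and on log2(FPKM + 1), leaving out each library, a block by library letter and a skeletal muscle score. Replicate libraries differed beyond counting noise, with a chi-square per degree of freedom of 40.0 in vehicle and 45.8 in BML-260.

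The members and gene lists were chosen with earlier results of these data known. Values per library are given for the core subunits, every Ndufaf gene, Ndufa4 and Ndufa4l2, members under an unadjusted p of 0.05 (none), the 5 largest and 5 smallest log2 fold changes and the 3 highest mean FPKM. Ndufs4, Ndufc2, Ndufb2, Acad9, mt-Nd4l, mt-Nd4, Adipoq, Myh7, Ucp1, Cidea, Cpt1b and the genes under other observations were named after their values were seen. Promoters of 6 genes, among them Ndufa2, Ndufa4l2, Ndufaf6, Ndufb9 and Ndufs1 were not used here. Of the genes the naming rule gives, 1 is not reported here, singly or in figures, though counts and medians over the set include it.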

Additional observations from a re-analysis of the deposited data

How the results depend on the processing

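The count of complex I genes past the threshold was 0 in each of 12 alternatives, and the lowest adjusted p in any was 0.188, for Ndufa2 without BML-260 B. Over all genes the count of 1 became 651 with edgeR and no filter on low counts and 392 with DESeq2, and it ran from 0 to 309 when 1 library was left out (0 without vehicle A, 309 without vehicle B, 5 without BML-260 B). It was 0 with the library letter as a replicate block and 0 with a term for the muscle marker score, both of which leave 1 residual degree of freedom. Under the replicate block the medians were 0.010 for subunits and relatives and -0.002 for assembly factors. With the muscle score term they were -0.054 and -0.015. The letters do not pair the libraries by any label, and deviations of same-letter libraries correlated at -0.059. Leaving out 1 library moved the subunit median between -0.14 and 0.14 and the assembly factor median between -0.14 and 0.11. Of 552 single-gene values recomputed, 81 had the other sign, and 1 of these had exceeded its standard error: Ndufa1, at -0.090 with the muscle score. The cause was not tested. Scaling by library totals moved the median of all genes to -0.035 and that of the subunits to -0.040. A lone library left in a group is assumed to vary like the others. Counts from 93 per gene and 2 libraries a group limit what could be detected.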

Other observations

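Complex I is one of several enzymes that reduce ubiquinone, and 9 of 10 genes on a list for the others were tested. Sdha, Sdhb, Sdhc and Sdhd on that list all encode subunits of complex II. None of the 9 passed edgeR's adjusted test, which 0.00639% of all genes tested passed. DESeq2 also called none of them, where it called 2.62% of the genes for which it gave an adjusted p. Under an unadjusted edgeR p of 0.05 lay 2 of the 9, in opposite directions, beside 11.1% of all genes tested. Etfdh, which passes electrons from fatty acid oxidation to ubiquinone, had 114 and 116 CPM with vehicle, then 136 and 169 with BML-260 (log2 fold change 0.41, SE 0.15, edgeR adjusted p 0.436). Prodh, proline dehydrogenase, had 66.6 and 63.0 CPM with vehicle, then 31.7 and 49.7 with BML-260 (log2 fold change -0.67, SE 0.23, edgeR adjusted p 0.418). For both genes the groups did not overlap. Over the 9 genes, BML-260 lay above vehicle without overlap for 3 and below it for 2, beside 22.9% and 21.5% of all genes tested. All 9 genes were higher in BML-260 B than in BML-260 A, beside 53.1% of all genes tested. Sdha, the flavoprotein of complex II, had 753 and 732 CPM with vehicle, then 724 and 928 with BML-260 (log2 fold change 0.15) with overlapping groups.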
